A study of Mus musculus with 8 samples.

Results

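Bile acids are made from cholesterol in hepatocytes, and 10 genes of that pathway were followed here in mouse liver, out of the 37583 genes counted. They are Cyp46a1, which encodes cholesterol 24-hydroxylase, and 9 enzymes of bile acid synthesis and conjugation: Cyp7a1, Cyp7b1, Cyp8b1, Cyp27a1, Cyp39a1, Hsd3b7, Akr1d1, Baat and Slc27a5. They were taken from the count table by gene name, and all 10 passed the filter on low counts in a fit that tested 17362 genes. Cyp46a1 was chosen by its low CPM in the Pr-Set7 libraries against WT, so its values are a description with no test. The 9 enzymes were chosen for their place in the pathway, with earlier results of these data known, and were tested across all genes.

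RNA of whole liver from C57BL6/CBA mice aged 8 months and kept on standard chow was sequenced in 8 libraries of 3 groups. PR-SET7_LOBE (4 libraries) carries a floxed Pr-Set7 with a Cre recombinase driven by the albumin promoter, which acts in hepatocytes. Which other cells of the liver keep the gene was not tested. The labels do not explain the word LOBE. DEN_WT (2 libraries) is wild type that received diethylnitrosamine (DEN), a carcinogen that hepatocytes activate, into the peritoneum 15 days after birth, at a dose labelled as 25 ml per kg without a concentration. WT (2 libraries) is untreated wild type. The sample numbers of the DEN_WT libraries form a block apart from those of the other groups. What separates the blocks is not given. In comparisons with DEN_WT, DEN and any difference between the blocks cannot be told apart. The labels give no sex and do not say that libraries of a group come from separate animals, so p-values measure the spread between these libraries, which may be technical. Total counts ran from 7305595 to 16108081 per library. Setd8, the symbol of Pr-Set7, had 62.6, 57.4, 47.9 and 46.5 CPM (counts scaled to the same TMM-adjusted library size) in libraries carrying the label PR-SET7_LOBE, 40.0 and 42.8 in DEN_WT and 51.9 and 56.0 in WT. A count over the whole gene in whole liver does not separate the floxed part from the rest, so it does not check the label. PR-SET7_LOBE replicate 1 lay closer to the WT libraries (mean r = 0.923 across genes) than to the rest of its own group (0.890), and results that depend on it are given without it as well.

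The classical route of bile acid synthesis starts with Cyp7a1, the rate-limiting 7-alpha-hydroxylase of cholesterol, and Cyp8b1 then adds the 12-alpha-hydroxyl group that sets the share of cholic acid. In the alternative routes cholesterol is first hydroxylated on its side chain, by Cyp27a1 or, mainly in neurons of the brain, by Cyp46a1, and the oxysterols formed are 7-alpha-hydroxylated by Cyp7b1 or, for 24-hydroxycholesterol, by Cyp39a1. Hsd3b7 and Akr1d1 rework the sterol ring, and Slc27a5 activates bile acids with coenzyme A before Baat joins them to taurine or glycine. Bile acids hold their own synthesis down through the receptor FXR (Nr1h4), its target SHP (Nr0b2) and the FGF receptor Fgfr4 with its co-receptor Klb.

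The RefSeq promoter table of the GRCm38.p6 build held 5 of the 10 genes, and a pair of them is printed because they differ the most in base content from each other among the 5 and one of them belongs to Cyp46a1. Each run holds the 250 bases before the annotated start, 5′ to 3′ on the strand of the gene. Capitals mark GC boxes (GGGCGG) in Cyp46a1 (chr12:108334066-108334315, plus strand), and in Cyp8b1 (chr9:121916306-121916555, minus strand) they mark an HNF4A-type direct repeat (CAAAGTCCA) that overlaps an NR5A2-type half-site (CCAAGG), and a TATA box (TATAAA).
Cyp46a1: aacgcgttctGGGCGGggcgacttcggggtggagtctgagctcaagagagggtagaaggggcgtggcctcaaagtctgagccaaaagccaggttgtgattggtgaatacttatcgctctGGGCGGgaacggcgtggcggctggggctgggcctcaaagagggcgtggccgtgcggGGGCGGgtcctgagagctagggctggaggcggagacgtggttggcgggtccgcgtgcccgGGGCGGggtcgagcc
Cyp8b1: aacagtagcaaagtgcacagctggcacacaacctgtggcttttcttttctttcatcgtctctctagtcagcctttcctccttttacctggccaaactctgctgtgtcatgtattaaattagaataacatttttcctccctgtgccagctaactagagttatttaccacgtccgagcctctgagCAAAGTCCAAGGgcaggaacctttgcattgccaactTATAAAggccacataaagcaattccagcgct
The 4 GC boxes of Cyp46a1 ended 235, 126, 70 and 10 bases before the start. Its window had 67.6% G and C and a CpG ratio, observed over expected from base content, of 0.926, above that of 90.1% of the 32851 promoters searched. The window of Cyp8b1 had 44.8% G and C and a CpG ratio of 0.337. Of all promoters searched, 32.7% held GGGCGG, 0.384% held CAAAGTCCA and 18.2% held CCAAGG on either strand, and 7.59% held TATAAA on the strand of the gene. A match describes letters and is not a binding site. The counts are on mm9, in which Cyp46a1 lies on chromosome 12 from 109572587 to 109600441 and Cyp8b1 on chromosome 9 from 121823474 to 121825423.

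**Figure D1:**
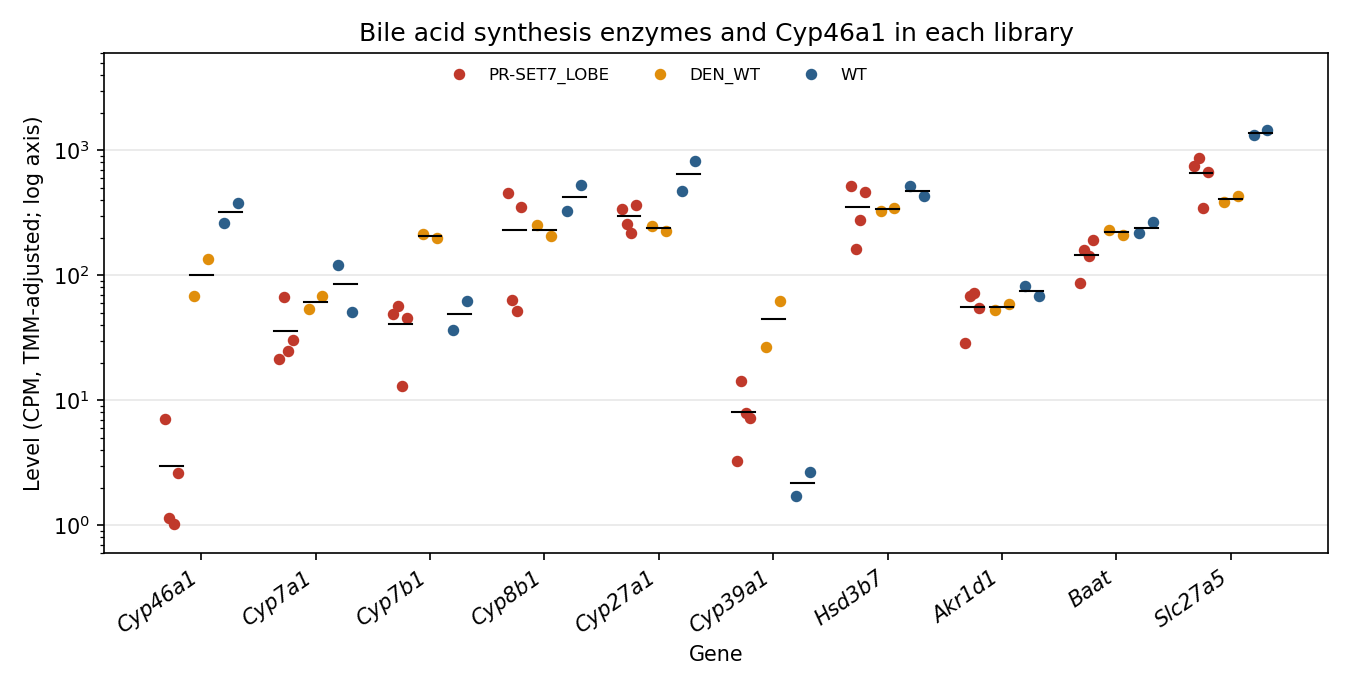
Level of each of the 10 genes in each library, in CPM scaled to the TMM-adjusted library size on a log axis; points are libraries and bars the group mean (PR-SET7_LOBE n = 4, DEN_WT n = 2, WT n = 2). Cyp46a1 lies between 1.02 and 7.04 CPM in PR-SET7_LOBE and at 262 and 375 CPM in WT, and Cyp39a1 is the one enzyme that is lowest in WT in both libraries.

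Cyp46a1 had 7.04, 1.15, 1.02 and 2.64 CPM in the PR-SET7_LOBE libraries, 68.3 and 134 CPM in DEN_WT and 262 and 375 CPM in WT. These levels rest on 75, 12, 11 and 29 reads in PR-SET7_LOBE, 771 and 1518 in DEN_WT and 2734 and 4070 in WT. All 3 groups were apart, with DEN_WT between the others, and PR-SET7_LOBE replicate 1 was the highest of its group. The log2 fold change was -6.74 for PR-SET7_LOBE against WT, -1.65 for DEN_WT against WT and -5.09 for PR-SET7_LOBE against DEN_WT. When single libraries were left out it ran from -7.62 to -6.38, from -2.20 to -1.23 and from -5.96 to -4.55 in these comparisons, and the values of -7.62 and -5.96 are those without PR-SET7_LOBE replicate 1. Per kilobase of exon, a scale on which genes can be compared, Cyp46a1 stood at 96.9 ± 24.4 CPM per kb in WT (SD, n = 2), rank 6 of the 10 and above Cyp7a1 at 20.6 ± 11.7. In PR-SET7_LOBE it was the lowest of the 10, at 0.902 ± 0.857 CPM per kb (SD, n = 4), and its range overlapped that of Cyp39a1, the next gene up.

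Cyp46a1 is known mainly as a neuronal enzyme, so markers of neurons were read beside it. Of 10 neuronal markers 9 were in the table and 7 were tested. Their summed level was 24.0 to 45 CPM in PR-SET7_LOBE, 16.2 and 18.0 in DEN_WT and 46.4 and 46.8 in WT. Without Camk2a, the most abundant of them, it was 14.6 to 25.9 CPM in PR-SET7_LOBE. It was then 15.3 and 17.2 CPM in DEN_WT and 17.6 and 22.1 CPM in WT, so most of the difference lay in Camk2a. Of the 7, 0 passed in PR-SET7_LOBE against WT by edgeR's quasi-likelihood test with Benjamini-Hochberg adjustment, 0 had an unadjusted p under 0.05 and 0 passed DESeq2, with a median log2 fold change of -0.01. Of the same 7, 2 fell in DEN_WT against WT, Camk2a and Rbfox3, with a list median of -1.14. In PR-SET7_LOBE against DEN_WT the same pair was higher, with a median of 2.55. Syt1, another marker of the list, went the other way, at 12.8 and 14.7 CPM in DEN_WT against 9.86 and 6.36 CPM in WT. Camk2a, a kinase of synapses, had 25.5, 12.3, 7.52 and 19.1 CPM in PR-SET7_LOBE, 0.885 and 0.795 CPM in DEN_WT and 28.8 and 24.7 CPM in WT, at a log2 fold change of -4.97 ± 0.66 in DEN_WT against WT (SE, adjusted p = 0.00215) and 4.24 ± 0.61 in PR-SET7_LOBE against DEN_WT (0.00184). Rbfox3, the nuclear antigen NeuN, was at -3.52 ± 0.70 (0.0120) and 2.55 ± 0.64 (0.0261), and these calls were lost without DEN_WT replicate 1 (0.102 and 0.207) or DEN_WT replicate 2 (0.136 and 0.287), the first also without WT replicate 2 (0.0771). The part of neuronal RNA in the level of Cyp46a1 was not tested. In whole tissue, fewer cells of a type and less RNA per cell cannot be told apart, here and in the results that follow.

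The initiating hydroxylase of the classical route was variable. Cyp7a1 had 21.5, 66.5, 24.7 and 30.5 CPM in PR-SET7_LOBE, 53.6 and 68.4 CPM in DEN_WT and 120 and 51.2 CPM in WT. PR-SET7_LOBE replicate 2 lay within the WT range and the other 3 PR-SET7_LOBE libraries were below it, so the groups overlapped. The log2 fold change of PR-SET7_LOBE against WT was -1.26 ± 0.50 (SE), which did not pass edgeR's quasi-likelihood test with Benjamini-Hochberg adjustment over all genes (adjusted p = 0.250). It ran from -1.68 to -0.52 when single libraries were left out, and the value of -0.52 is that without WT replicate 1. Cyp8b1 had 451, 63.5, 51.3 and 349 CPM in PR-SET7_LOBE, 253 and 208 CPM in DEN_WT and 328 and 523 CPM in WT. The PR-SET7_LOBE libraries split into a pair within the WT range and a pair far below it, and with a highest level 8.79 times the lowest Cyp8b1 varied the most of the 10 genes in that group. Its log2 fold change was -0.90 in PR-SET7_LOBE and -0.89 in DEN_WT, each against WT (adjusted p = 0.539 and 0.540).

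Cyp27a1, the mitochondrial sterol 27-hydroxylase, had 337, 259, 219 and 366 CPM in PR-SET7_LOBE, 249 and 226 CPM in DEN_WT and 472 and 827 CPM in WT. With TMM every library of both groups lay below both WT libraries. As a share of all reads, PR-SET7_LOBE replicate 4 (4014 of 8904838) lay above WT replicate 1 (4937 of 13757466). Within PR-SET7_LOBE the highest CPM of Cyp27a1 was 1.67 times the lowest, the smallest spread of the 10 genes. Its log2 fold change against WT was -1.14 ± 0.40 in PR-SET7_LOBE and -1.45 ± 0.48 in DEN_WT (SE; adjusted p = 0.210 and 0.0790), so neither passed edgeR's test. In DEN_WT it passed under 3 of 16 alternatives, by DESeq2 (0.0181), with only the 2 groups compared (0.0307) and without PR-SET7_LOBE replicate 1 (0.0319).

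The oxysterol 7-alpha-hydroxylases held the changes that passed the test. Cyp39a1 had 3.29, 14.2, 7.89 and 7.20 CPM in PR-SET7_LOBE, 26.5 and 62.6 CPM in DEN_WT and 1.72 and 2.67 CPM in WT. The groups did not overlap, and DEN_WT was the highest. Cyp39a1 rose in DEN_WT against WT by a log2 fold change of 4.33 ± 0.73 (SE, edgeR adjusted p = 0.00544), and this call was lost without WT replicate 1 (adjusted p = 0.0616). Without DEN_WT replicate 2 the log2 fold change was 3.60 (adjusted p = 0.0477). Its log2 fold change in PR-SET7_LOBE against WT was 1.88 ± 0.62, which did not pass with all libraries (adjusted p = 0.196) and passed without PR-SET7_LOBE replicate 1 (adjusted p = 0.0325). It was lower in PR-SET7_LOBE than in DEN_WT by a log2 fold change of -2.45 ± 0.52 (adjusted p = 0.0123), a call lost without DEN_WT replicate 2, at -1.73 (adjusted p = 0.283).

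Cyp7b1 had 49.0, 56.6, 12.9 and 45.6 CPM in PR-SET7_LOBE, 212 and 198 CPM in DEN_WT and 36.6 and 62.2 CPM in WT. The DEN_WT libraries stood above all other libraries, and PR-SET7_LOBE overlapped WT. It was lower in PR-SET7_LOBE than in DEN_WT by a log2 fold change of -2.32 ± 0.50 (SE, edgeR adjusted p = 0.0130). That call was lost without DEN_WT replicate 1 (adjusted p = 0.0743) and without DEN_WT replicate 2 (0.0782). In DEN_WT against WT its log2 fold change was 2.05 ± 0.62 and missed the threshold of edgeR's test (adjusted p = 0.0616), while it passed under 8 of 16 alternatives, among them DESeq2 (0.00783), only the 2 groups compared (0.0111) and the fits without PR-SET7_LOBE replicate 1 (0.0358) or replicate 3 (0.0134). Against WT, PR-SET7_LOBE was at -0.27 (adjusted p = 0.807).

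The ring-modifying enzymes gave no called difference. Hsd3b7 had 516, 161, 277 and 464 CPM in PR-SET7_LOBE, 329 and 348 CPM in DEN_WT and 518 and 434 CPM in WT. Its values are uncertain, because Setd1a overlaps it on the same strand and the transcript of a predicted gene, Gm49388, is 100% identical to it over 91.2% of its length. Akr1d1, the 5-beta-reductase, had 28.7, 68.6, 72.5 and 55.1 CPM in PR-SET7_LOBE, 52.3 and 58.7 CPM in DEN_WT and 81.4 and 68.3 CPM in WT. The log2 fold changes of these genes against WT lay between -0.49 and -0.41, with adjusted p from 0.564 to 0.649.

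Of the conjugating enzymes, Slc27a5 was the most abundant of the 10 genes per kilobase in every group. It had 748, 871, 345 and 670 CPM in PR-SET7_LOBE, 388 and 431 CPM in DEN_WT and 1328 and 1440 CPM in WT. Both groups lay wholly below WT, with log2 fold changes of -1.07 ± 0.44 in PR-SET7_LOBE (SE, adjusted p = 0.256) and -1.76 ± 0.53 in DEN_WT (adjusted p = 0.0612), neither of which passed edgeR's test. In DEN_WT it passed under 5 of 16 alternatives, among them DESeq2 (0.00439), only the 2 groups compared (0.0110) and the fits without PR-SET7_LOBE replicate 1 (0.0269) or replicate 3 (0.0428). Baat had 86.4, 161, 143 and 190 CPM in PR-SET7_LOBE, 231 and 212 CPM in DEN_WT and 216 and 265 CPM in WT. With TMM, PR-SET7_LOBE was below both other groups, at a log2 fold change of -0.73 against WT (edgeR adjusted p = 0.343), and DEN_WT overlapped WT.

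**Figure D2:**
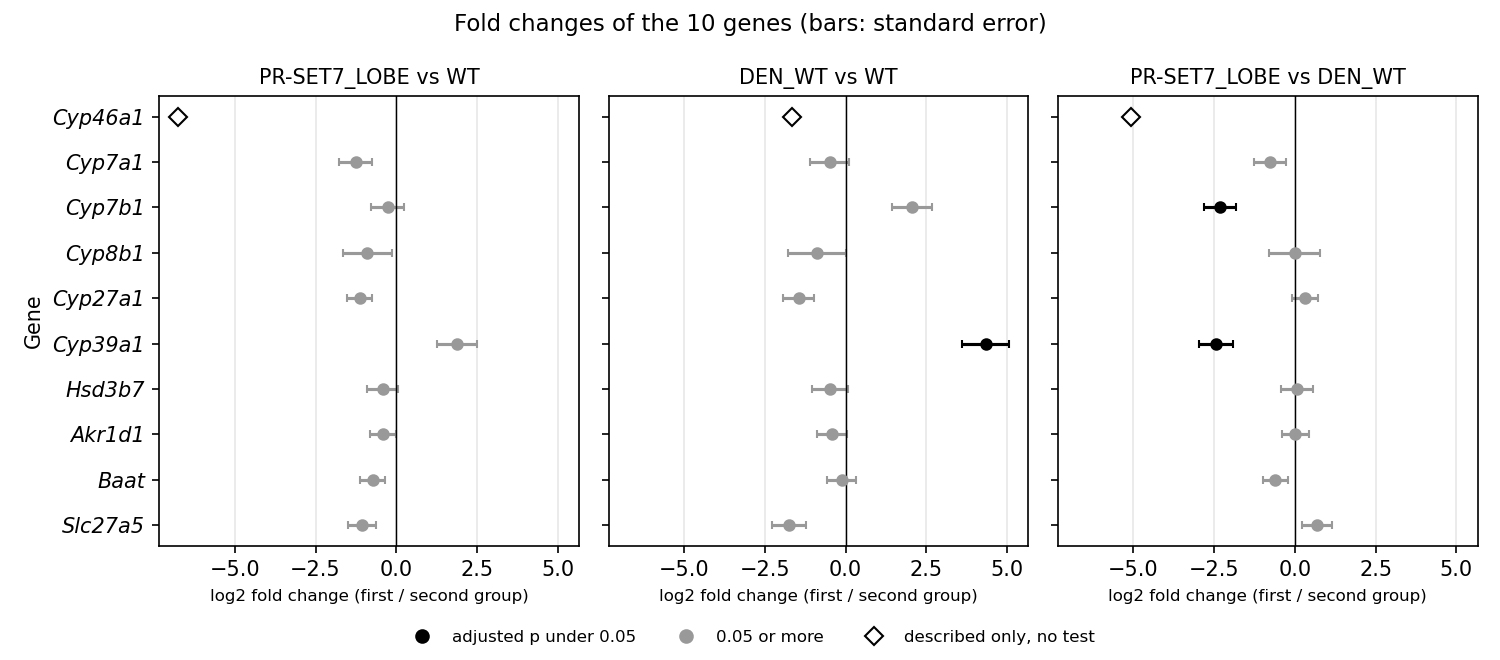
Log2 fold change of each of the 10 genes in the 3 comparisons, first-named group over the second, with bars of 1 standard error from the edgeR fit; black points passed an adjusted p of 0.05 and open diamonds mark Cyp46a1, which has no test. Cyp39a1 passed in DEN_WT against WT, and Cyp39a1 and Cyp7b1 passed in PR-SET7_LOBE against DEN_WT.

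Counted over the 9 enzymes, 0 passed in PR-SET7_LOBE against WT by edgeR, where 0.248% of all tested genes did (0.15% higher and 0.0979% lower). An unadjusted p under 0.05 was reached by 4 of them (Cyp7a1, Cyp27a1, Cyp39a1 and Slc27a5), against 17.2% of all genes, and DESeq2 called 1 (Cyp39a1, adjusted p = 0.0499), where it called 5.13% of all genes. Of the 9, 8 had a negative log2 fold change, with a median of -0.73 beside 0.11 over all genes. The libraries of the 2 groups did not overlap for 3 enzymes that were lower and 1 that was higher. Over all genes 22.1% did not overlap, 10.5% lower and 11.6% higher.

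In DEN_WT against WT 1 of the 9 enzymes rose, Cyp39a1, where 9.73% of all genes passed, 5.18% higher and 4.54% lower. An unadjusted p under 0.05 was reached by 4 of the 9, against 28.9% of all genes, and DESeq2 called 4 (Cyp7b1, Cyp27a1, Cyp39a1 and Slc27a5), where it called 18.1% of all genes. The median log2 fold change was -0.49 beside 0.06 over all genes. With 2 libraries in each group 5 enzymes were lower and 2 higher without overlap, where 71.2% of all genes did not overlap, 33.3% lower and 37.8% higher. In PR-SET7_LOBE against DEN_WT 2 of the 9 fell, Cyp7b1 and Cyp39a1, where 11.1% of all genes passed, 6.26% lower and 4.82% higher. The same pair had an unadjusted p under 0.05, which 25.8% of all genes reached, and DESeq2 called 16.4% of all genes there. Without overlap 3 of the 9 were lower (Cyp7b1, Cyp39a1 and Baat), where 40.5% of all genes did not overlap, 21.2% lower and 19.3% higher. The median was -0.01 beside 0.18. Both comparisons with WT use the same WT libraries, and both comparisons with DEN_WT the same DEN_WT libraries, so the comparisons are not independent of each other. The shares of all genes given for each comparison apply as well to the counts for the gene lists in other paragraphs.

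The sign of small changes depended on the scaling of the libraries, and so did the separation of groups for some genes, which is given with TMM. With library totals in place of TMM the median log2 fold change over all genes moved to 0.79 in PR-SET7_LOBE against WT and 0.65 in DEN_WT against WT, and 4 and 3 of the 9 enzymes were then negative. Measured from that median, 8, 7 and 7 of the 9 enzymes lay below it in the 3 comparisons, in the order given above, under each of the 4 scalings tried.

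Ratios of counts between enzymes within a library do not depend on the scaling. The ratio of Cyp7b1 to Cyp7a1 was 2.28, 0.852, 0.523 and 1.496 in PR-SET7_LOBE, 3.96 and 2.89 in DEN_WT and 0.303 and 1.22 in WT, so DEN_WT lay above all other libraries. Slc27a5 to Baat was 8.66, 5.42, 2.42 and 3.52 in PR-SET7_LOBE, 1.68 and 2.04 in DEN_WT and 6.15 and 5.43 in WT, with DEN_WT below all other libraries. Cyp39a1 to Cyp7b1 was 0.0670, 0.25, 0.612 and 0.158 in PR-SET7_LOBE, 0.125 and 0.317 in DEN_WT and 0.0471 and 0.0430 in WT, so both WT libraries lay below the other 6. Cyp8b1 to Cyp7a1 ran from 0.955 to 20.98 in PR-SET7_LOBE and was 4.72 and 3.04 in DEN_WT and 2.72 and 10.2 in WT, so the groups overlapped. Cyp27a1 to Cyp7a1 overlapped as well, at 3.90 to 15.7 in PR-SET7_LOBE, 4.65 and 3.31 in DEN_WT and 3.92 and 16.2 in WT. No test was run on the ratios.

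**Figure D3:**
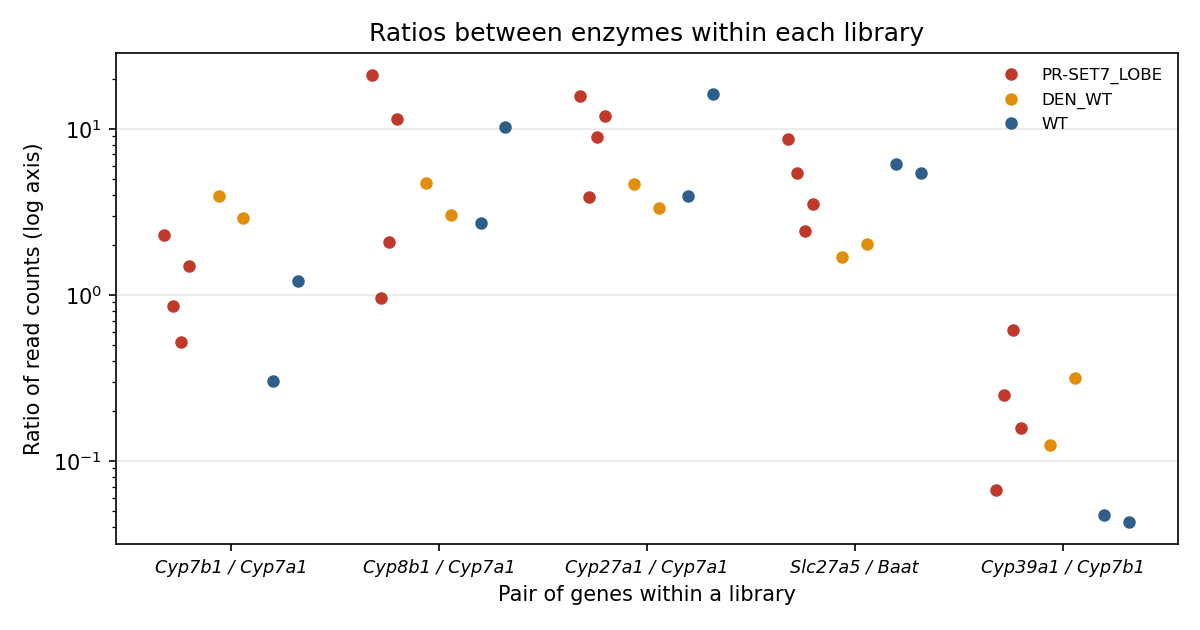
Ratio of read counts between enzymes within each library, on a log axis; each point is a library of PR-SET7_LOBE (n = 4), DEN_WT (n = 2) or WT (n = 2). The DEN_WT points are the highest for Cyp7b1 over Cyp7a1 (3.96 and 2.89) and the lowest for Slc27a5 over Baat (1.68 and 2.04).

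Levels per kilobase ordered the enzymes within each group. Slc27a5 led with 270 ± 92.1 CPM per kb in PR-SET7_LOBE (SD, n = 4), 168 ± 12.5 in DEN_WT and 568 ± 32.5 in WT (SD, n = 2 each). The highest mean was 300 times the lowest in PR-SET7_LOBE, 11.5 times in DEN_WT and 789 times in WT. In PR-SET7_LOBE the lowest gene was Cyp46a1, and in DEN_WT and WT it was Cyp39a1, at 14.6 ± 8.37 CPM per kb in DEN_WT and 0.720 ± 0.220 in WT. Of the 9 neighbouring pairs in that order 7 overlapped in PR-SET7_LOBE, 4 in DEN_WT and 5 in WT. Slc27a5 did not overlap the next gene in DEN_WT or WT, and overlapped Cyp27a1 in PR-SET7_LOBE.

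Cyp2c70, which makes the muricholic acids of mice, was the one gene edgeR called among the side-chain and further bile acid enzymes, of which 17 of 20 were tested. It had 41.3, 193, 111 and 183 CPM in PR-SET7_LOBE, 661 and 551 CPM in DEN_WT and 172 and 197 CPM in WT. It fell in PR-SET7_LOBE against DEN_WT by a log2 fold change of -2.20 ± 0.52 (SE, edgeR adjusted p = 0.0211), the 1 gene of the 17 called there, and the call was lost without DEN_WT replicate 1 (0.128) and without DEN_WT replicate 2 (0.101). Of the 17, edgeR called 0 in PR-SET7_LOBE against WT, 6 had an unadjusted p under 0.05 and DESeq2 called 1 (Stard5, a sterol carrier). Over all genes 17.2% had an unadjusted p under 0.05 there and DESeq2 called 5.13%. Stard5 overlaps Il16 on the opposite strand. The smallest edgeR values there were those of Stard5, at a log2 fold change of -1.18 (adjusted p = 0.159), and of Acnat1, a paralog of Baat, at -1.34 (0.181). In DEN_WT against WT edgeR called 0 of the 17, with 4 at an unadjusted p under 0.05, a share below the 28.9% of all genes, and 2 called by DESeq2 (Pex5 and Cyp2c70). The smallest edgeR values were those of Pex5, a receptor for import into peroxisomes, at -1.29 (adjusted p = 0.0899), and of Cyp4a14, a fatty acid hydroxylase, at -1.86 (0.0915). The median log2 fold changes of the list were -0.73, -0.44 and -0.21 in the 3 comparisons, beside 0.11, 0.06 and 0.18 over all genes.

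Of the 21 regulators tested out of 24 listed, 2 changed by edgeR's test in DEN_WT against WT, a nuclear receptor and a coactivator, a share near the 9.73% of all genes called there. Nr1i3, the xenobiotic receptor CAR, had 66.4, 96.0, 89.4 and 77.8 CPM in PR-SET7_LOBE, 26.5 and 33.0 CPM in DEN_WT and 172 and 215 CPM in WT. With TMM the 3 groups did not overlap, with PR-SET7_LOBE between the others. It fell in DEN_WT against WT, at -2.70 ± 0.42 on the log2 scale (SE, adjusted p = 0.00358) and was higher in PR-SET7_LOBE than in DEN_WT by 1.47 ± 0.37 (adjusted p = 0.0256). Tomm40l overlaps Nr1i3 on the opposite strand, and the strand setting of the counting is not given, so the reads of the pair cannot be told apart. Ppargc1a, a coactivator of HNF4A and other receptors, had 31.0, 15.2, 12.3 and 27.2 CPM in PR-SET7_LOBE, 6.29 and 6.62 CPM in DEN_WT and 40.2 and 61.3 CPM in WT. With TMM its groups were in the same order and did not overlap. It fell in DEN_WT against WT by -2.97 ± 0.54 (adjusted p = 0.00770) and was higher in PR-SET7_LOBE than in DEN_WT by 1.73 ± 0.47 (adjusted p = 0.0395). Each of these 4 calls was lost when DEN_WT replicate 1 was left out (adjusted p from 0.0743 to 0.342) and when DEN_WT replicate 2 was (0.0616 to 0.312). Those of PR-SET7_LOBE against DEN_WT were also lost without some single libraries of the other groups. For Nr1i3 these were PR-SET7_LOBE replicate 2 (0.0531) and replicate 3 (0.0503), and for Ppargc1a they were PR-SET7_LOBE replicate 4 (0.0621), WT replicate 1 (0.0584) and WT replicate 2 (0.0587).

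The feedback genes did not pass edgeR's test in any comparison. Nr1h4 (FXR) had 77.8, 53.3, 60.9 and 69.9 CPM in PR-SET7_LOBE, 73.1 and 59.3 CPM in DEN_WT and 109 and 93.2 CPM in WT. Nr0b2 (SHP) had 26.3, 8.80, 21.4 and 23.0 CPM in PR-SET7_LOBE, 31.2 and 34.1 CPM in DEN_WT and 35.8 and 30.1 CPM in WT. With TMM, Nr1h4 was below WT in all 6 other libraries, and Nr0b2 was below WT in the 4 PR-SET7_LOBE libraries. As a share of all reads this did not hold. Nr1h4 in PR-SET7_LOBE replicate 3 (656 of 7305595) then lay above WT replicate 1 (1138 of 13757466). So did Nr0b2 (230 reads against 374 in these libraries). Fgfr4, Klb, Nr5a2 and Hnf4a had log2 fold changes between -0.61 and -0.27 in PR-SET7_LOBE against WT, with adjusted p from 0.425 to 0.750. Of the 21 regulators edgeR called 0 in PR-SET7_LOBE against WT, where 5 had an unadjusted p under 0.05 and DESeq2 called 2 (Nr1i3 and Vdr). Nr1i3 was at -1.23 (edgeR adjusted p = 0.142). Vdr, the vitamin D receptor, was at 6.75 ± 2.00 (0.163), which rests on at most 0.191 CPM in WT and on PR-SET7_LOBE replicate 4. DEN_WT against WT had 0 higher and 2 lower, with 7 at an unadjusted p under 0.05 and 6 called lower by DESeq2 (Nr1i3, Ppargc1a, Ppara, Mafg, Onecut1 and Dbp). PR-SET7_LOBE against DEN_WT had 2 higher and 0 lower, with 3 at an unadjusted p under 0.05 and 2 by DESeq2.

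**Figure D4:**
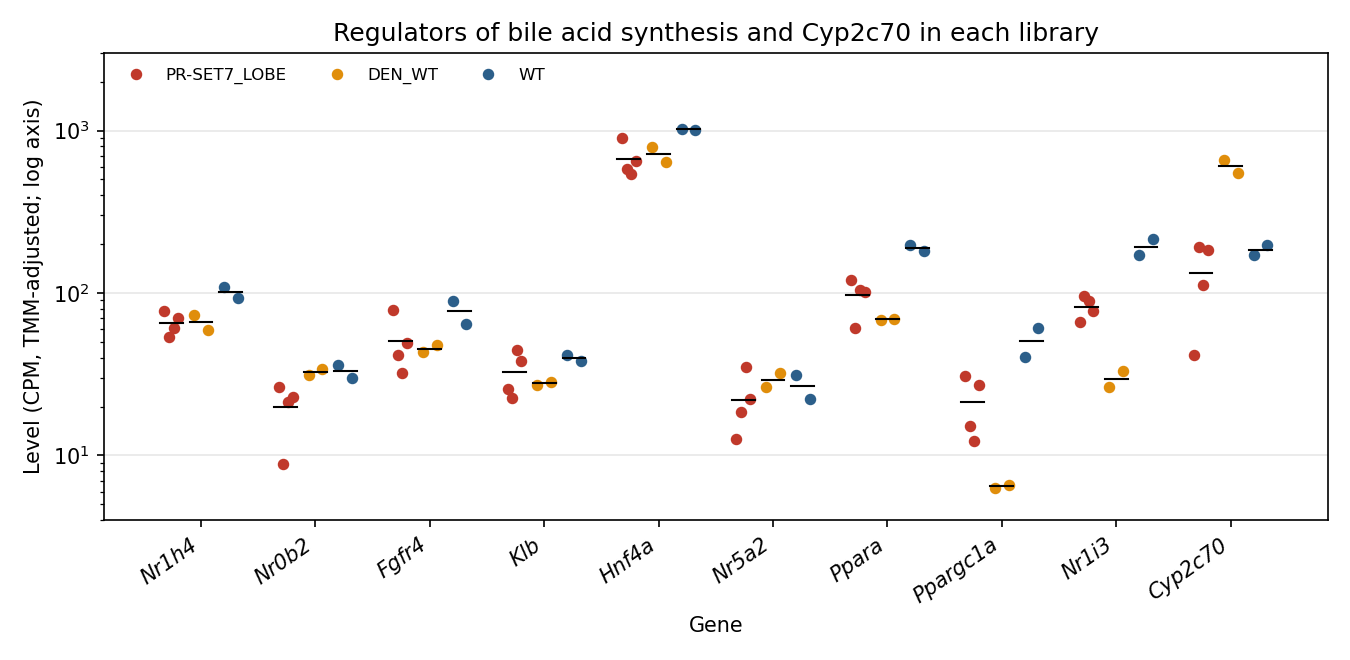
Level of regulators of bile acid synthesis and of Cyp2c70 in each library, in TMM-adjusted CPM on a log axis; points are libraries and bars group means (PR-SET7_LOBE n = 4, DEN_WT n = 2, WT n = 2). Nr1i3 and Ppargc1a are lowest in DEN_WT (26.5 and 33.0, 6.29 and 6.62 CPM) and Cyp2c70 is highest there (661 and 551 CPM).

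Oxysterols such as the product of Cyp46a1 activate the receptor LXR, so a list of 12 LXR genes was read as well, all of which were tested. The list holds targets of LXR together with Nr1h3 and Nr1h2, the genes of the receptor itself. EdgeR called 0 in PR-SET7_LOBE against WT, with 5 at an unadjusted p under 0.05 and 1 by DESeq2 (Fasn). The smallest edgeR values were those of Fasn, the fatty acid synthase, at a log2 fold change of -1.48 (adjusted p = 0.178), and of Srebf1, which encodes the transcription factor SREBP1, at -1.37 (0.208). In DEN_WT against WT 1 fell, Fasn, at 479 and 837 CPM in DEN_WT against 2305 and 4175 CPM in WT, by a log2 fold change of -2.30 ± 0.58 (SE, edgeR adjusted p = 0.0330). That call was lost without any 1 of the DEN_WT and WT libraries and without PR-SET7_LOBE replicate 2 (adjusted p from 0.0514 to 0.278). In PR-SET7_LOBE against DEN_WT edgeR called 0, with 1 at an unadjusted p under 0.05 and 1 by DESeq2, in both cases Abca1. Abca1, the cholesterol exporter, was at -1.39 (edgeR adjusted p = 0.104) and Abcg1, another exporter, at 1.15 (0.196).

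Several of these enzymes are known to differ between male and female mice, Cyp7b1 being higher in males and Cyp39a1 in females, and the labels give no sex. The Y-linked genes Ddx3y, Kdm5d, Eif2s3y and Uty had counts in all 8 libraries. Uty had 0.670 to 3.25 CPM in PR-SET7_LOBE, 9.74 and 8.83 CPM in DEN_WT and 0.766 and 0.645 CPM in WT. Xist had 0.188 to 7.93 CPM in PR-SET7_LOBE, 0.531 and 0.530 CPM in DEN_WT and 0.574 and 0.830 CPM in WT. Uty and Ddx3y rose in DEN_WT against WT (log2 fold changes of 3.70 and 2.94, edgeR adjusted p = 0.0182 and 0.0433) and fell in PR-SET7_LOBE against DEN_WT (-2.35 and -2.23, adjusted p = 0.0272 and 0.0409). Of these 4 calls, each was lost without DEN_WT replicate 1 (0.0864 to 0.231) and without DEN_WT replicate 2 (0.0908 to 0.177). Those against WT were also lost without WT replicate 1 or 2 (0.104 to 0.197), those against DEN_WT without PR-SET7_LOBE replicate 2 (0.0518 and 0.0744), and that of Ddx3y against DEN_WT without WT replicate 1 (0.0522) or 2 (0.0532).

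The summed level of 15 male-biased liver genes was 6387 to 20677 CPM in PR-SET7_LOBE, 15453 and 22998 CPM in DEN_WT and 38322 and 48368 CPM in WT. Serpina1e held most of it, and without that gene the sum was 1175 to 3802 CPM in PR-SET7_LOBE, 8249 and 6301 CPM in DEN_WT and 3081 and 8502 CPM in WT, so that DEN_WT lay within the WT range. The median log2 fold change of the male-biased list was -1.56 in PR-SET7_LOBE and 0.10 in DEN_WT, each against WT. The sum of 20 female-biased genes was 744 to 4227 CPM in PR-SET7_LOBE, 4138 and 2189 CPM in DEN_WT and 444 and 758 CPM in WT. Without Cyp2a4 it was 135 to 944 CPM in PR-SET7_LOBE, 415 and 280 CPM in DEN_WT and 373 and 597 CPM in WT, and the median of the list against WT was -0.17 in PR-SET7_LOBE and 0.38 in DEN_WT. In PR-SET7_LOBE against WT edgeR called 0 of the 15 male-biased and 0 of the 18 tested female-biased genes, with 6 and 7 at an unadjusted p under 0.05. DESeq2 called 4 male-biased genes, all lower, and 4 female-biased genes, 2 higher and 2 lower. In DEN_WT against WT edgeR called 0 male-biased genes, with 3 at an unadjusted p under 0.05 and 2 called lower by DESeq2. Of the female-biased genes 6 had an unadjusted p under 0.05, and DESeq2 called 2 higher and 4 lower. EdgeR called 2 of the female-biased genes higher and 1 lower. These were Cyp2a4 (log2 fold change 4.604, adjusted p = 0.0152), Prom1 (4.51, 0.0441) and Cyp3a44 (-2.72, 0.0434), and each was lost without WT replicate 1, WT replicate 2 or DEN_WT replicate 1 (adjusted p from 0.0606 to 0.219). Prom1 and Cyp3a44 were also lost without DEN_WT replicate 2 (0.161 and 0.293) or PR-SET7_LOBE replicate 2 (0.0609 and 0.0525), and Prom1 without PR-SET7_LOBE replicate 4 (0.0522). In PR-SET7_LOBE against DEN_WT edgeR called 1 male-biased gene, Mup20, at a log2 fold change of -3.10 (adjusted p = 0.0277), and 1 female-biased gene, Cyp2b9, at -2.13 (0.0202), both lower. Both calls were lost without DEN_WT replicate 1 (log2 fold changes -2.97 and -2.30) or DEN_WT replicate 2 (-3.28 and -2.01). That of Mup20 was also lost without PR-SET7_LOBE replicate 2 (adjusted p = 0.0759). DESeq2 called 3 male-biased genes lower there, and 2 female-biased genes higher and 1 lower. These families hold near-identical copies, so the values of single members are uncertain. The part of sex in the levels of Cyp7b1 and Cyp39a1 was not tested.

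Markers of the cells in liver were read beside the 10 genes. The summed level of 12 hepatocyte markers was 52538 to 170822 CPM in PR-SET7_LOBE, 155278 and 182045 CPM in DEN_WT and 112524 and 135679 CPM in WT, with no marker at 0 in any library. Without Alb, which spanned 9678 to 105982 CPM, the sum was 27881 to 73438 CPM in PR-SET7_LOBE. It was 69938 and 76063 CPM in DEN_WT and 89479 and 82682 CPM in WT, so that with TMM all 6 other libraries lay below WT. That order depends on the TMM factors, which were 0.760 and 0.674 in WT and 0.876 to 1.48 elsewhere. The sum without Alb is not given with library totals. For the full sum, which includes Alb, library totals gave 72718 to 177043 CPM in PR-SET7_LOBE, 173283 to 190808 CPM in DEN_WT and 85464 to 91359 CPM in WT. The list's median log2 fold change against WT was -0.65 in PR-SET7_LOBE, beside -0.73 for the 9 enzymes, and 0.11 in DEN_WT. EdgeR called 0 of the 12 in any comparison, with 4 at an unadjusted p under 0.05 in PR-SET7_LOBE against WT, 4 in DEN_WT against WT and 3 between PR-SET7_LOBE and DEN_WT. DESeq2 called 3 lower in PR-SET7_LOBE against WT (Tat, Hpd and Serpina1c), 2 higher and 2 lower in DEN_WT against WT, and 3 lower in PR-SET7_LOBE against DEN_WT.

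The sum of 12 pericentral markers, the zone in which Cyp7a1 is known to be highest, was 2128 to 4970 CPM in PR-SET7_LOBE, 4540 and 3595 CPM in DEN_WT and 7418 and 7623 CPM in WT. That of 11 periportal markers was 4666 to 11291 CPM in PR-SET7_LOBE, 6510 and 5903 CPM in DEN_WT and 13419 and 16637 CPM in WT. Both zonal sums were thus below WT in all 6 other libraries, but with library totals in place of TMM the pericentral sum of PR-SET7_LOBE, at 2206 to 5417 CPM, overlapped that of WT, at 5133 to 5634 CPM. The median log2 fold changes against WT were -0.60 (pericentral) and -1.22 (periportal) in PR-SET7_LOBE and -1.04 and -0.74 in DEN_WT. EdgeR called 1 gene of each list. DESeq2 called 1 pericentral and 3 periportal markers lower in PR-SET7_LOBE against WT. In DEN_WT against WT it called 2 pericentral and 2 periportal markers lower and 1 periportal marker higher, Ctsc. Ctsc had 206 and 130 CPM in DEN_WT and 71.8 and 31.9 CPM in WT. In PR-SET7_LOBE against DEN_WT DESeq2 called 2 pericentral markers higher, and 1 periportal marker higher and 2 lower. Ass1, a periportal enzyme of the urea cycle, fell in DEN_WT against WT by -3.51 (edgeR adjusted p = 0.0287), a call lost without any 1 of the DEN_WT and WT libraries (0.0892 to 0.213). Lgr5, a pericentral marker, was higher in PR-SET7_LOBE than in DEN_WT by 1.85 (edgeR adjusted p = 0.0322). That call was lost when any 1 library other than PR-SET7_LOBE replicate 1 was left out. The log2 fold change was 2.29 without DEN_WT replicate 1 and 1.47 without DEN_WT replicate 2.

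The sum of 12 cholangiocyte markers was 165 to 407 CPM in PR-SET7_LOBE, 547 and 941 CPM in DEN_WT and 132 and 164 CPM in WT. Tspan8, Krt23 and Cftr were among those at 0 in WT replicate 1. Without Spp1 the sum was 231, 95.1, 105 and 96.3 CPM in PR-SET7_LOBE, 164 and 262 CPM in DEN_WT and 149 and 123 CPM in WT. Replicate 1 of PR-SET7_LOBE then lay above both WT libraries and its other replicates below them. Of the 11 tested, edgeR called 1 higher in PR-SET7_LOBE against WT (Spp1), 4 higher in DEN_WT against WT (Tspan8, Spp1, Krt23 and Cldn7) and 2 lower in PR-SET7_LOBE against DEN_WT (Tspan8 and Krt23), and the medians were 1.62, 1.07 and 0.24. Of all genes it called 0.15% higher, 5.18% higher and 6.26% lower in these comparisons. Spp1, osteopontin, held 68.8 to 249 CPM in PR-SET7_LOBE, 383 and 679 CPM in DEN_WT and 15.5 and 9.04 CPM in WT. Its log2 fold change against WT was 3.80 in PR-SET7_LOBE (edgeR adjusted p = 0.0411) and 5.43 in DEN_WT (0.00215). Tspan8, a tetraspanin, had 3.64 to 7.24 CPM in PR-SET7_LOBE, 58.1 and 155 CPM in DEN_WT and 0 and 0.645 CPM in WT, with an adjusted p of 0.00175 for DEN_WT against WT and a log2 fold change of -4.27 (0.00157) for PR-SET7_LOBE against DEN_WT. That of -4.27 was -3.42 without DEN_WT replicate 2. Krt23 had 0.729 to 2.54 CPM in PR-SET7_LOBE, 19.6 and 8.30 CPM in DEN_WT and 0 and 0.922 CPM in WT (adjusted p = 0.0220 in DEN_WT against WT and 0.0213 in PR-SET7_LOBE against DEN_WT). Cldn7, a claudin, was at 2.62 in DEN_WT against WT (0.0400). Sox9, a transcription factor of these cells, had 17.8 to 48.7 CPM in PR-SET7_LOBE, 11.2 and 12.1 CPM in DEN_WT and 7.56 and 3.50 CPM in WT, and in PR-SET7_LOBE against WT DESeq2 called it and Tspan8 higher as well as Spp1. Krt19, a keratin of these cells, was at 0.957 to 5.17 CPM in PR-SET7_LOBE, 1.95 and 2.21 CPM in DEN_WT and 3.06 and 2.03 CPM in WT.

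Some of these calls depended on single libraries. That of Spp1 in PR-SET7_LOBE against WT was lost without WT replicate 1 (adjusted p = 0.183), WT replicate 2 (0.447), PR-SET7_LOBE replicate 2 (0.0831) or PR-SET7_LOBE replicate 3 (0.0623). Those of Krt23 were lost without either DEN_WT library (0.0515 to 0.262), against WT also without WT replicate 1 (0.0802) and against DEN_WT without PR-SET7_LOBE replicate 2 (0.0607), and that of Cldn7 without any 1 of the DEN_WT and WT libraries (0.118 to 0.292).

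The sum of 12 stellate cell markers was 259 to 433 CPM in PR-SET7_LOBE, 545 and 320 CPM in DEN_WT and 207 and 224 CPM in WT, above WT in all 6 other libraries, with none at 0. Their median log2 fold change against WT was 0.75 in PR-SET7_LOBE and 1.19 in DEN_WT. EdgeR called 1, Lum, a collagen-binding proteoglycan, higher in DEN_WT against WT by 2.45 (adjusted p = 0.0476), a call lost without any 1 of the DEN_WT and WT libraries, PR-SET7_LOBE replicate 2 or PR-SET7_LOBE replicate 4 (0.0568 to 0.243). The sum of 11 T and B cell markers was 27.1 to 34.3 CPM in PR-SET7_LOBE, 10.8 and 8.83 CPM in DEN_WT and 21.8 and 22.8 CPM in WT. Without Cd3d the sum of these markers was 19.0 to 28.1 CPM in PR-SET7_LOBE. In DEN_WT it was then 10.4 and 8.57 CPM, which overlapped the 7.85 and 9.22 CPM of WT. Their median against WT was 2.10 in PR-SET7_LOBE and -0.08 in DEN_WT. In PR-SET7_LOBE against WT edgeR called 0 of the 11, 6 had an unadjusted p under 0.05 and DESeq2 called 2 higher (Cd79b and Trbc2). Over all genes these shares were 0.248%, 17.2% and 5.13%. In DEN_WT against WT edgeR called 1 lower, Cd3d, where 4.54% of all genes were called lower. Cd3d, a subunit of the T cell receptor complex, had 4.08 to 13.8 CPM in PR-SET7_LOBE, 0.354 and 0.265 CPM in DEN_WT and 13.97 and 13.6 CPM in WT (adjusted p = 0.00237 for DEN_WT against WT). It and Cd79b, a subunit of the B cell receptor complex, were higher in PR-SET7_LOBE than in DEN_WT by 4.58 and 3.11 (adjusted p = 0.00244 and 0.0223), calls lost without DEN_WT replicate 2 (0.0519 and 0.311), and that of Cd79b also without DEN_WT replicate 1 (0.203). The sum of 11 macrophage markers overlapped WT in both groups. That of 10 endothelial markers overlapped WT in PR-SET7_LOBE and was 312 and 331 CPM in DEN_WT, against 415 and 379 CPM in WT. With library totals in place of TMM the order reversed. The endothelial sum was then 347 to 349 CPM in DEN_WT and 330 to 362 CPM in PR-SET7_LOBE, both above the 256 to 315 CPM of WT. EdgeR called none of either list in any comparison, and DESeq2 called 1 to 2 macrophage and 0 to 1 endothelial markers, with 1 to 3 and 1 to 2 at an unadjusted p under 0.05. The part of the cell markers in the levels of the 10 genes was not tested.

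The genes nearest to Cyp46a1 were read to see whether its low level was shared along the chromosome. The 5 nearest tested genes on either side lie within 463642 bases of it. In PR-SET7_LOBE against WT edgeR called 0 of the 10, with 3 at an unadjusted p under 0.05 and 2 by DESeq2 (Hhipl1 and Degs2). Hhipl1, on the same strand and 6077 bases away, had 4.51, 1.15, 0.743 and 1.55 CPM in PR-SET7_LOBE, 0.620 and 0.795 CPM in DEN_WT and 13.7 and 10.9 CPM in WT. All 6 libraries of the first 2 groups lay below WT, as for Cyp46a1, but the DEN_WT libraries were not between the other groups and overlapped the lowest of PR-SET7_LOBE. Its log2 fold change was -2.62 ± 0.63 in PR-SET7_LOBE against WT (SE, edgeR adjusted p = 0.114), and it fell in DEN_WT against WT by -4.10 ± 0.87 (adjusted p = 0.0165). The call in DEN_WT was lost without WT replicate 1 (0.0713), DEN_WT replicate 1 (0.135) or DEN_WT replicate 2 (0.130).

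On the other side, Eml1, 8726 bases away, had 2.54, 2.77, 2.41 and 3.37 CPM in PR-SET7_LOBE, 2.92 and 1.94 CPM in DEN_WT and 0.191 and 1.48 CPM in WT. It was higher than WT in all 6 other libraries, at a log2 fold change of 1.72 ± 0.75 in PR-SET7_LOBE (SE, adjusted p = 0.275). Bcl11b, a transcription factor of T cells and neurons that lies 330775 bases away, fell in DEN_WT against WT by -4.81 ± 0.91 (adjusted p = 0.00972) and was higher in PR-SET7_LOBE than in DEN_WT by 4.89 ± 0.88 (0.00499). These calls were lost without DEN_WT replicate 1 (0.0739 and 0.0522) or DEN_WT replicate 2 (0.0811 and 0.0611), and that against WT also without WT replicate 1 (0.0571). It was at 4.61 CPM in WT replicate 2 and 38.1 CPM in WT replicate 1. The other 7 neighbours (Setd3, Ccnk, Ccdc85c, Evl, Degs2, Yy1 and Slc25a29) passed edgeR's test in none of the 3 comparisons. DESeq2 called Degs2 higher in PR-SET7_LOBE against WT and Ccdc85c lower in DEN_WT against WT, where edgeR had a log2 fold change of -4.02 (adjusted p = 0.0558). In PR-SET7_LOBE against WT their log2 fold changes ran from -1.77 for Ccdc85c to 2.92 for Degs2.

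**Figure D5:**
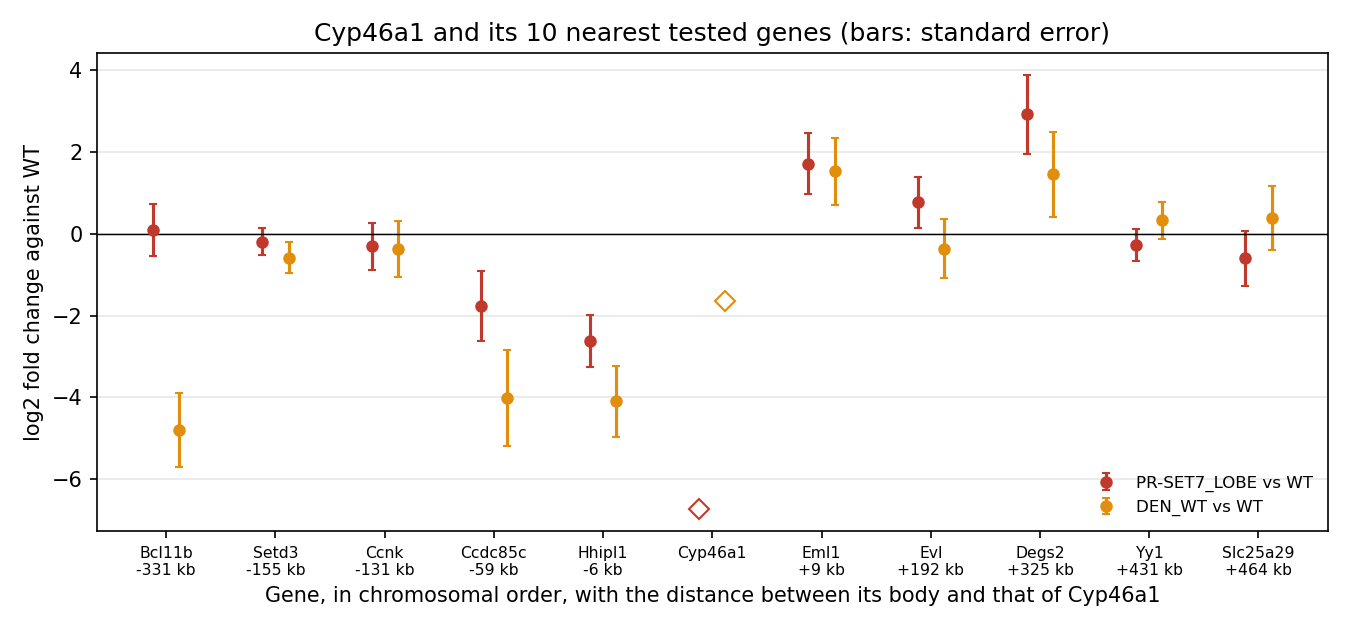
Log2 fold change against WT of Cyp46a1 (open diamonds, no test) and of the 5 nearest tested genes on either side, in chromosomal order with the distance between gene bodies; bars are 1 standard error from the edgeR fit. Cyp46a1 lies at -6.74 in PR-SET7_LOBE and -1.65 in DEN_WT, while Hhipl1 beside it lies at -2.62 and -4.10 and Eml1 above 0 in both.

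The 5 named genes whose log2 CPM followed that of Cyp46a1 most closely over the 8 libraries, out of 11329 candidates, were Lactb2 (Pearson r = 0.994), Fam176a (0.979), Fam54b (0.975), Ceacam1 (0.975) and Gart (0.975). The points share their libraries and groups, so these are descriptions. Lactb2 had 152, 124, 117 and 130 CPM in PR-SET7_LOBE, 236 and 268 CPM in DEN_WT and 264 and 302 CPM in WT. Its range was far narrower than that of Cyp46a1, which spanned 1.02 to 375 CPM. Among the 9 enzymes r with Cyp46a1 ran from -0.0958 for Cyp39a1 to 0.645 for Cyp8b1.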

How the data were processed

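The authors deposited unnormalized counts of reads for each Ensembl gene, with the 8 libraries side by side. Per the labels' protocols, mRNA was isolated with oligo(dT) beads, fragmented with RNase III and sequenced on an Ion Proton. The submitters' processing notes name TopHat2 2.0.9, Cufflinks, DESeq and the build mm9. How reads were counted (tool, annotation, strand, multiple hits) is not given in the sources used here.

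The members and gene lists were chosen with earlier results of these data known. Genes were filtered by group with edgeR 4.0.16 (filterByExpr) and scaled with TMM. All 8 libraries entered 1 robust quasi-likelihood fit with group as the only term, since 2 groups hold 2 libraries, at a common biological coefficient of variation of 0.479. A gene rose or fell at a Benjamini-Hochberg adjusted p under 0.05 over 17362 genes. The SE is the log2 fold change divided by the square root of its F statistic. CPM are counts scaled to a common TMM-adjusted library size, and CPM per kb divides by the GENCODE M21 exon length. Copies were sought with blastn 2.17.0. Besides the 10 genes, the genes named were up to 6 of each list that passed, or else, for the pathway lists, the 2 with the smallest adjusted p, the 10 nearest neighbours of Cyp46a1 and the 5 genes most correlated with it (mean log2 CPM of at least 1, predicted genes left out). Some genes of known role and the genes Sox9, Krt19 and those that DESeq2 called were named outside that rule, after their values were seen, and so was the ratio of Cyp39a1 to Cyp7b1. Libraries of a group differed by more than sampling noise (chi-square per degree of freedom of at least 27.4). Amplified reads are not independent molecules. The test was tried on simulated counts. Alternatives included DESeq2 1.42.0, other scalings and filters, a replicate block and leaving out each library. Summed levels without a list's most abundant gene or with library totals were added after the data were seen. A lone library left in a group was assumed to vary like the others.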

Additional observations from a re-analysis of the deposited data

Results flagged for a closer look

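In the 4 PR-SET7_LOBE libraries, 6 of 61 genes examined had 1 library far from the other 3, by Dixon's test at the 95% level, which flags about 1 in 20 groups by chance. None of the 10 bile acid genes was among them. Abcg1 was at 41.6 CPM in replicate 4 and 16.6 to 17.8 CPM in the others, and Vdr was at 36.4 CPM in replicate 4 and 1.03 to 6.78 CPM in the others. Cyp2a4 was at 3283 CPM in replicate 2 and 609 to 1049 CPM in the others. Replicate 1 was the high library for Moxd1, at 41.6 CPM and 0.0957 to 3.10 CPM in the others, for Ccnk, at 45.1 CPM and 11.9 to 14.6 CPM, and for Ccdc85c, at 19.0 CPM and 1.21 to 3.44 CPM. Ccnk and Ccdc85c are both neighbours of Cyp46a1, which was also highest in replicate 1 of its group, at 7.04 CPM.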

How the results depend on the processing

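Of 480 recomputed log2 fold changes of the 10 genes (16 alternatives), 423 kept their direction and side of the threshold, 18 newly passed, 4 no longer passed, 34 changed sign and 1 moved (Cyp46a1 in DEN_WT against WT, -1.06 with library totals). Where sign changes occurred the cause was not tested.

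In PR-SET7_LOBE against WT the genes called numbered 43, against 66 with upper-quartile scaling (47 higher, 19 lower, where the main split was 26 and 17), 96 with library totals (85 higher, 11 lower), 419 with no filter, 19 with only the 2 groups compared, 243 with a replicate block and 890 with DESeq2, and 1 to 2392 with single libraries left out. Of the enzymes 0 were called, 1 with DESeq2 and 0 to 1 with libraries left out. In DEN_WT against WT 1689 genes were called, against 5643 with 2 groups, 3137 with the replicate block and 3144 with DESeq2 (329 to 4549 with libraries left out), and library totals gave 1362 higher and 497 lower. Of the enzymes 1 was called, 2 with library totals, no filter or the strict filter (5 CPM in 2 libraries), 4 with 2 groups or DESeq2 and 3 with the replicate block (0 to 4 with libraries left out). In PR-SET7_LOBE against DEN_WT 1924 genes were called (454 to 2662 with libraries left out), and 2 enzymes (0 to 2).

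With library totals, log2 fold changes against WT turned positive in PR-SET7_LOBE for Cyp7b1 (0.35), Hsd3b7 (0.23), Akr1d1 (0.33) and Baat (0.0064), and in DEN_WT for Cyp7a1 (0.062), Hsd3b7 (0.095), Akr1d1 (0.15) and Baat (0.49). Baat in DEN_WT against WT was 0.062 with the strict filter. In PR-SET7_LOBE against DEN_WT, Akr1d1 was -0.035 with RLE scaling and with DESeq2, -0.060 with no filter and -0.021 with 2 groups, Hsd3b7 was -0.021 with no filter, and Cyp8b1 was 0.065 with upper-quartile scaling. With the replicate block Cyp7b1 was 0.12 in PR-SET7_LOBE against WT, and in PR-SET7_LOBE against DEN_WT Hsd3b7 was -0.17 and Akr1d1 -0.26. Same-numbered libraries correlated at -0.00874 to 0.165 in their deviations from the group means, so the numbers do not pair them.

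With single libraries left out, values that changed sign ranged from -0.61 to 0.23 for Cyp7b1 in PR-SET7_LOBE against WT, in DEN_WT against WT from -0.88 to 0.27 for Cyp7a1 and -0.25 to 0.14 for Baat, and in PR-SET7_LOBE against DEN_WT from -0.57 to 0.31 for Cyp8b1, -0.16 to 0.32 for Hsd3b7 and -0.22 to 0.24 for Akr1d1. The standard errors of the enzymes' log2 fold changes ran from 0.39 to 0.91, which limits what could be called.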
